A study of Homo sapiens with 4 samples.

Results

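The loci of 7 subunits of the SWI/SNF chromatin remodelling complexes were examined for open chromatin in cells of the established ovarian cancer line OVSAHO. They were ARID1A, ARID1B, ARID2, PBRM1, SMARCB1, SMARCC1 and SMARCC2. Members were all deposited ATAC-seq peaks that shared 1 bp or more with one of these loci widened by 10 kb on each side, in hg19 coordinates. The rule used position only and no measured value. It took 28 peaks out of 78048 on chromosomes 1 to 22 and X, 7 of them narrow and 21 broad. All 7 loci held a broad peak in at least 1 library and 3 of them, PBRM1, SMARCB1 and SMARCC2, a narrow peak.

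SWI/SNF complexes use ATP to slide or evict nucleosomes and so open DNA to transcription factors. They carry a single ATPase, SMARCA2 or SMARCA4, on a core that contains SMARCC1 and SMARCC2. SMARCB1 joins this core in the BAF form, defined by ARID1A or ARID1B, and in the PBAF form, defined by ARID2 with PBRM1, while a non-canonical form lacks SMARCB1 and these ARID subunits. Genes of these subunits, ARID1A above all, are often mutated in cancers, ovarian clear cell carcinoma among them.

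Per the labels, the test cells (OVSAHO-A2-siA4) had stable SMARCA2 with SMARCA4 knockdown, and the control cells (OVSAHO-Ctrl-siNC) were WT. Both groups were cultured with carboplatin (25 µM, 2 days), a platinum compound that binds DNA, so the drug was present in every library and no library shows the loci without it. Each group had 2 libraries, here test 1, test 2, control 1 and control 2, and the labels do not say that they came from separate cultures. A p-value here thus measures only how far these samples spread, and that spread may be technical. The labels give no clone, vector or measured level of either ATPase, and expression was not analysed here. Peaks come from many cells at once, so a site open in fewer cells and a site less open in each cell cannot be told apart.

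The narrow lists rested on nucleosome-free fragments, 6146272 to 7531794 of them in 3 libraries and 15828837 in control 1. The broad lists used every fragment, 22432549 to 25452784 in those 3 libraries and 31515662 in control 1. Control 1 stood apart in other ways: its mean fragment was 131 bp against 178 to 182 bp, and its lists were the longest, at 10360 narrow and 18484 broad peaks. Results at the loci are therefore also given without it. The fold enrichment (pileup over the local background, with 1 added to both) and the −log10 q of a peak are the authors' own values. They are not normalized between libraries and are used here to describe peaks within their own list.

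Control 1, the library with the most peaks in the genome, had almost none at the 7 loci. The test libraries had 3 and 2 narrow peaks there, control 1 had 0 and control 2 had 2. They had 7 broad peaks each, while control 1 had 1 and control 2 had 6. The 3 other libraries thus lay close together in both peak types and control 1 lay below them.

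The windows added up to 1.25 Mb, or 0.0463% of the effective genome size in the file headers. At the density of its whole list, control 1 would have held 4.79 narrow and 8.55 broad peaks in them. The same reckoning gave 1.57, 1.93 and 2.52 narrow peaks for test 1, test 2 and control 2, and 4.11, 6.45 and 6.18 broad peaks. As a share of its list, control 1 had 0 of 10360 narrow peaks at the loci, for which a count of 0 allows a share of up to 0.0290% by the 3-count limit and up to 0.0356% by the exact interval, and 1 of 18484 broad peaks, or 0.00541% (95% exact interval 0.000137 to 0.0301). The exact interval of each of the other libraries included the 0.0463% of an even spread, from 0.0182 to 0.257 for the narrow list of test 1 to 0.0165 to 0.0978 for the broad list of control 2. Such intervals reflect counting error alone. The weakest pileup accepted in a broad list was 8 fragments in all 4 libraries. In the narrow lists it was 5 in control 1 and 4 in the other 3.

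**Figure D1:**
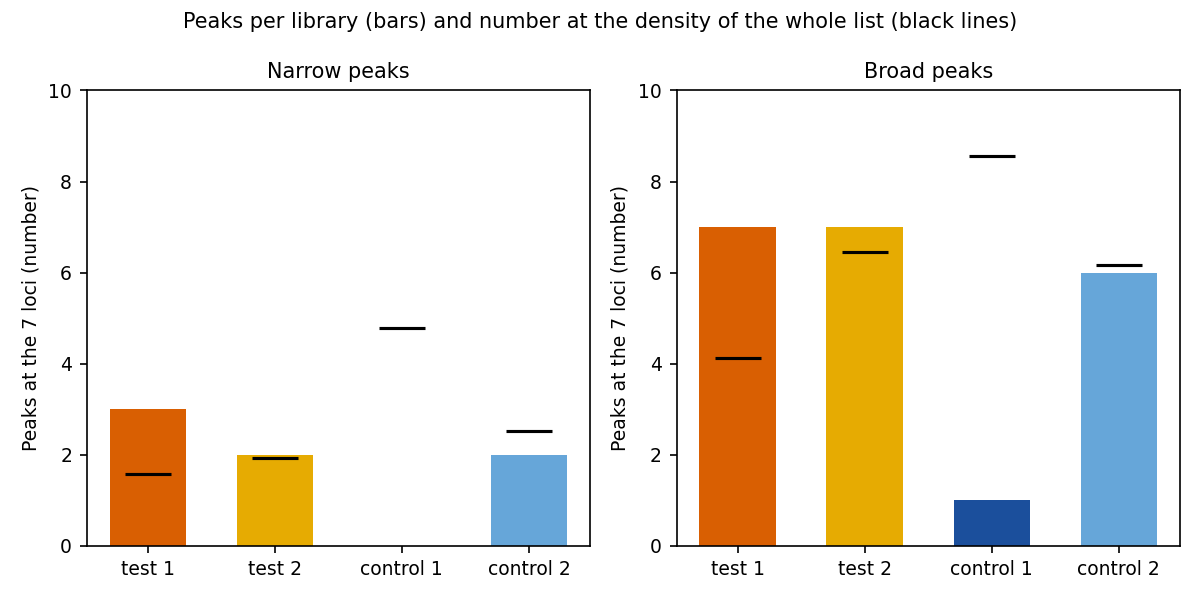
Number of narrow (left) and broad (right) peaks at the 7 loci in each library, as bars, with black lines for the number at the density of that library's whole list. Control 1 has 0 narrow and 1 broad peak where its list density gives 4.79 and 8.55, and the other libraries lie nearer to their lines.

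Between the groups, the mean number of narrow peaks was 2.5 ± 0.71 in test and 1.0 ± 1.41 in control libraries (SD, 2 libraries each; p = 0.667 by an exact permutation test, two-sided). The mean number of broad peaks was 7.0 ± 0.0 in test and 3.5 ± 3.54 in control libraries (SD, 2 libraries each; p = 0.333 by the same exact test, which cannot go lower with 2 libraries per group). The broad difference, control minus test, was -3.5 peaks, about the size of the control SD. Without control 1 it was -1.0 and the narrow difference moved from -1.5 to -0.5.

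The difference in number lay outside the genes. Peaks that shared bases with a gene itself numbered 1, 3, 1 and 3 in the broad lists, in the order test 1, test 2, control 1 and control 2, a mean of 2.0 ± 1.41 in each group (SD, 2 libraries each; exact permutation p = 1.0). Not a single narrow peak of any library overlapped one of the 7 genes. Of all 28 peaks, 6 lay within 1 kb of a gene start and 7 further inside a gene. Another 4 lay in an upstream flank and 11 in a downstream flank, so 15 were in flanks more than 1 kb from a start. Of the 6 near a start, only the broad peak of SMARCC1 shared bases with its gene. The others lay before the start, so the 10 kb rule added these as well as the 15.

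**Figure D2:**
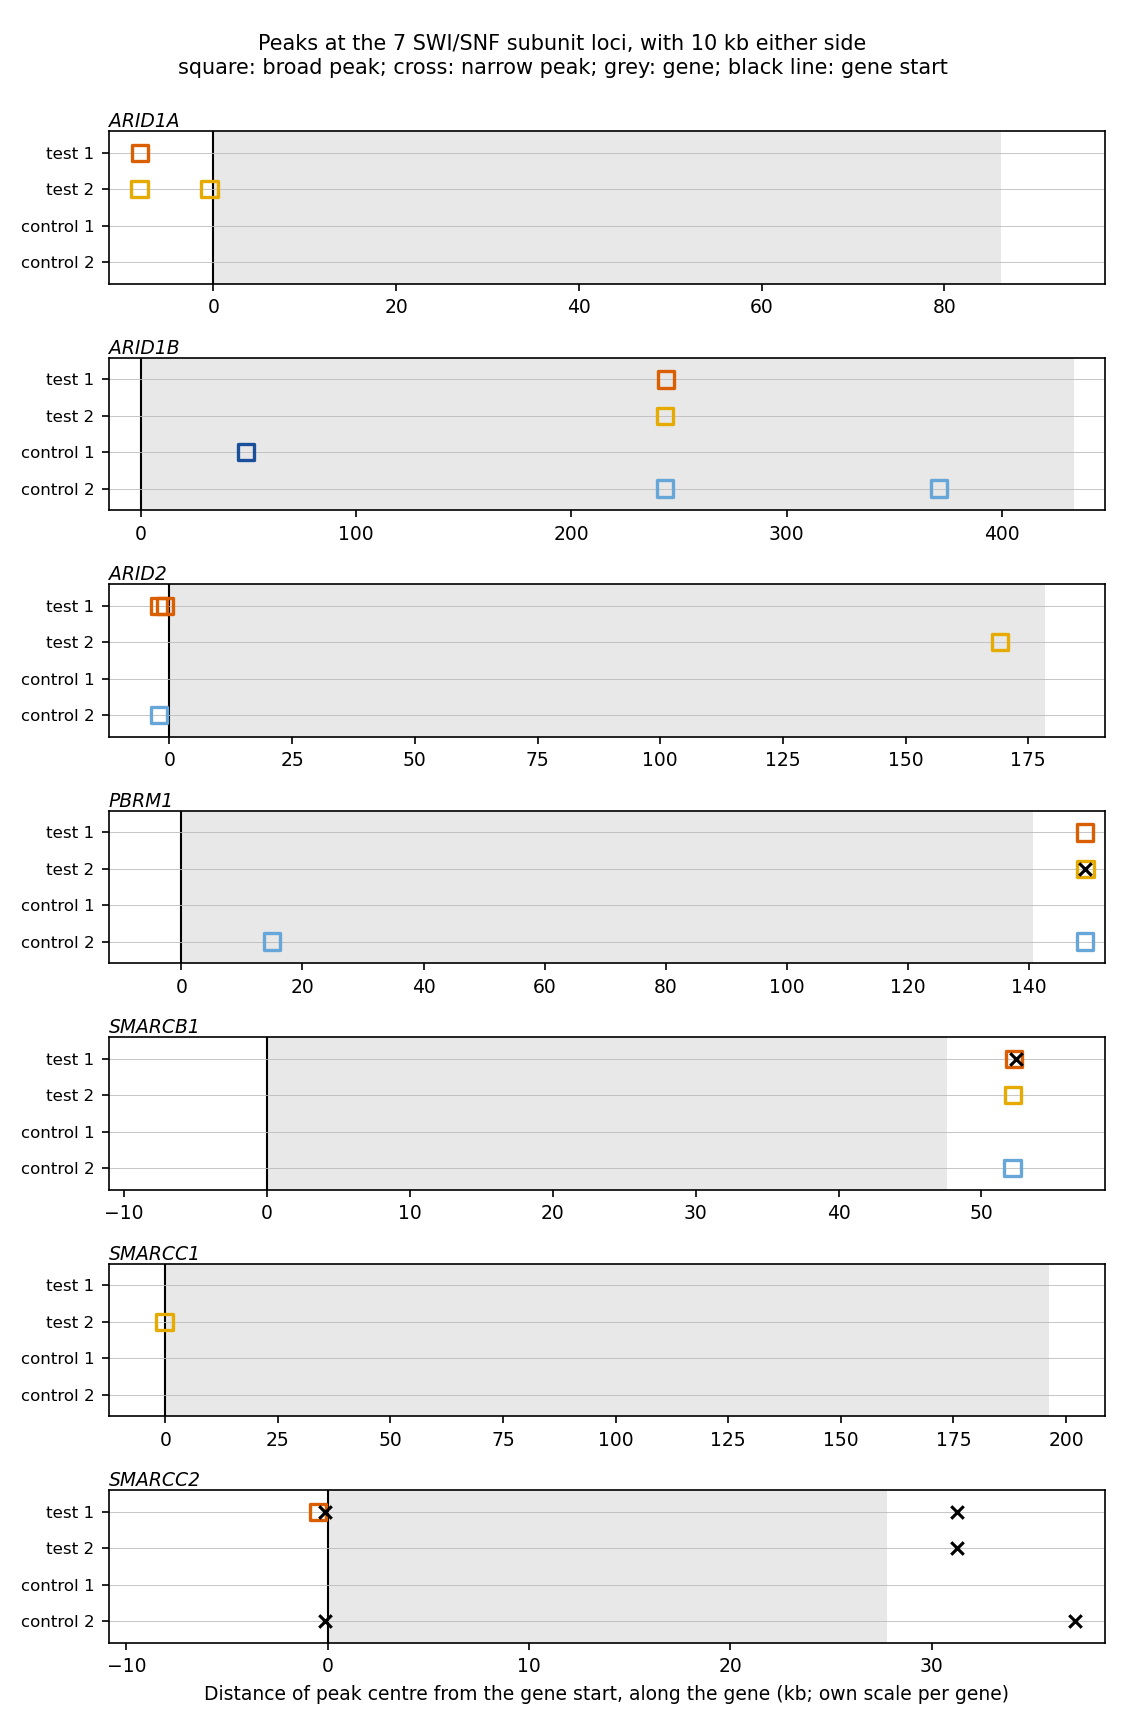
Centre of each peak as distance in kb from the gene start (black line) along the direction of transcription, 1 panel per gene with its own scale and 1 row per library; squares are broad peaks, crosses narrow peaks and grey the gene. The row of control 1 is empty except for 1 broad peak in ARID1B, and the sites with peaks in 3 rows are in ARID1B and past the ends of PBRM1 and SMARCB1.

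Per length of window, and over all 8 lists, the loci differed. These densities count peaks and not sites, so a site counts again in each library and peak type where it was called. SMARCC2 had the densest set, 6 peaks in 47.7 kb or 12.6 per 100 kb, followed by SMARCB1 with 4 peaks, all at a single place, or 5.92 per 100 kb. PBRM1 had 5 peaks (3.12 per 100 kb), ARID1A 3 (2.83), ARID2 4 (2.02) and ARID1B 5 (1.10). SMARCC1 had 1 peak in 216 kb, or 0.463 per 100 kb. For all peaks of the series over the effective genome size the density was 2.89 per 100 kb, and for the 7 windows together 2.24. The shortest windows held the highest densities, and the fixed 10 kb flanks make up a larger share of a shorter window. No peak of SMARCC2 or SMARCB1 shared bases with its gene, so the densities of both came from outside the genes. These counts are too small to order neighbours such as PBRM1 and ARID1A.

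Among the core subunits, SMARCC2 (chr12:56555636-56583351, minus strand) was the only locus with a narrow peak near its start. SMARCC2 and its paralog SMARCC1 form the dimer on which the complex is assembled. The peak merged to chr12:56583437-56583534, its near edge 86 bp before the start. It was called in test 1 with a fold enrichment of 5.34 (−log10 q 3.06) and in control 2 with 4.75 (−log10 q 2.52), and not in test 2 or control 1. The site was therefore shared across the groups and absent from 1 library of each. A broad peak of 705 bp lay over it in test 1 alone (chr12:56583465-56584169), with a fold enrichment of 3.24 on a pileup of 14.2 fragments. That fold enrichment ranked at percentile 8.9 of the broad list of test 1, and the background around it was 2.5 times the genome background of the library.

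The strongest narrow peak of the 7 loci lay past the other end of SMARCC2. It was the only test-only narrow region, called in test 1 and test 2 but in neither control. This was 1 of 5 narrow regions at the loci, against 1.25% of all 17554 merged narrow regions. Control 1 had 0 narrow peaks at the loci, so only control 2 could keep a region there from being test-only. The shares are thus not like for like. The region, chr12:56552055-56552164, began 3472 bp beyond the gene's end in test 1. Its fold enrichment was 7.63 in test 1 (pileup 11, −log10 q 7.23) and 5.24 in test 2 (pileup 8, −log10 q 3.02). No broad list had a peak there. Within their own lists these values stood at percentiles 76.8 and 39.5. At a −log10 q of 5 or more the region was left in test 1 only. In the RefSeq gene order of GRCh38.p14 the next genes past this end of SMARCC2 are MYL6 and MYL6B, which encode myosin light chains. A further narrow peak of control 2, at chr12:56546208-56546286 with a fold enrichment of 6.22, lay 9350 bp beyond the end and had no counterpart in the other libraries.

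SMARCC1 (chr3:47627378-47823405, minus strand) had just 1 peak in 8 lists. A broad peak of test 2 at chr3:47823365-47823765 lay across its start, with a fold enrichment of 3.80, a pileup of 9.01 fragments and a −log10 q of 2.08. The rest of the gene, 196 kb long, held no narrow or broad peak in any library.

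SMARCB1 (chr22:24129150-24176705, plus strand), a core subunit that contacts the nucleosome and is lost in rhabdoid tumours, had no peak at its start or in its body. All 4 of its peaks lay at a single place past its end, chr22:24181038-24181612. The broad peaks there had fold enrichments of 4.54 (test 1), 4.71 (test 2) and 4.71 (control 2). Within their own lists they stood at percentiles 67.5, 88.8 and 82.6, and control 1 had no peak. The −log10 q was 4.28, 6.40 and 6.52 in the same order. A narrow peak was called inside it in test 1 alone, at a fold enrichment of 3.95 and a −log10 q of 1.39, just past the threshold of 1.30. In the RefSeq order of GRCh38.p14, DERL3 overlaps the annotated SMARCB1 gene and SLC2A11 follows it.

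Of the BAF subunits, ARID1A had the only test-only broad region. This was 1 of 13 broad regions at the loci, against 1.03% of all 36726 merged broad regions. No region was control-only in either peak type, where 1.25% of all narrow and 1.24% of all broad regions were. Control 1, with 0 narrow and 1 broad peak at the loci, left almost no room for one. It also made test-only status easier to reach, as control 2 was nearly alone in being able to prevent it. Without control 1 there was 1 control-only narrow region and there were 2 broad ones. The ARID1A region, chr1:27014303-27014612, ended 7910 bp before the gene start (ARID1A lies at chr1:27022522-27108601, plus strand). Its fold enrichment was 5.14 in test 1 (pileup 15.5, −log10 q 5.88) and 5.94 in test 2 (pileup 15.4, −log10 q 6.97). These values stood at percentiles 81.3 and 97.2 of their own lists, so the site was among the stronger broad peaks of both test libraries. It had no narrow peak in any library. RPS6KA1, which encodes a kinase of the MAPK pathway, is the next protein-coding gene on that side in the RefSeq order.

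Nearer the ARID1A start, test 2 alone had a broad peak at chr1:27021971-27022209, with a fold enrichment of 3.56 and a −log10 q of 2.09. It ended 313 bp before the start. RefSeq promoter sequences (GRCh38.p14) matched 4 of the 7 genes, namely ARID1A, ARID1B, PBRM1 and SMARCB1. The 250 bases before the start are printed for ARID1A, whose start was the only one of these 4 with a peak within 1 kb, and for SMARCB1, whose start had none. Capitals mark the GC box, searched as GGGCGG and on the other strand as CCGCCC, overlaps counted.
ARID1A, chr1:26695765-26696014, plus strand: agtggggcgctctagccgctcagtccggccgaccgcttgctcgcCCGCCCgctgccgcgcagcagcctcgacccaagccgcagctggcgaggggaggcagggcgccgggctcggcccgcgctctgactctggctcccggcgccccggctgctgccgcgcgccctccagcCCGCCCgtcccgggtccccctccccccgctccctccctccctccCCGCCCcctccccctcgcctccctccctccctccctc
SMARCB1, chr22:23786716-23786965, plus strand: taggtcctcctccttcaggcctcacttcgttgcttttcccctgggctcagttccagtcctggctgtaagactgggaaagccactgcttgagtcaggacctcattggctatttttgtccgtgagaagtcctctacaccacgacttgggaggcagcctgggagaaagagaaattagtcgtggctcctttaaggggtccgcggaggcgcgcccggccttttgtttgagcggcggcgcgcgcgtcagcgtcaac
The ARID1A stretch was 80.4% G and C, with 30 CpG sites and 3 GC boxes. The SMARCB1 stretch was 58.0% G and C, with 16 CpG sites and 0 GC boxes. RefSeq lists a pair of promoters each for PBRM1 and ARID1B, and the richer one had 83.6% G and C, 40 CpG sites and 6 GC boxes for PBRM1 and 76.0%, 37 and 4 for ARID1B, yet neither start had a peak in any list. Over 35116 RefSeq promoter windows of the same length the medians were 58.0% and 11 CpG sites, and 42.6% held a GC box. The test 2 peak lay further from the gene than the printed stretch and did not overlap the corresponding 250 bases.

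ARID1B, the paralog that takes the place of ARID1A in some BAF complexes, is the longest of the 7 genes (chr6:157099064-157531913, plus strand, 433 kb). It had 5 broad and 0 narrow peaks, all far inside the gene. A region at chr6:157342481-157343077, 243 kb into the gene, was called in 3 libraries, at fold enrichments of 3.62 (test 1), 3.66 (test 2) and 3.85 (control 2). These calls were weak (−log10 q 1.58, 1.75 and 2.27), and the test 1 peak overlapped the others only in part. The only peak of control 1 at any of the 7 loci was also here, at chr6:157147766-157147903, with a fold enrichment of 3.75 and a −log10 q of 1.78. Control 2 alone had a peak at chr6:157469824-157470179, at 3.71.

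In the PBAF form, PBRM1 (chr3:52579368-52719866, minus strand), a subunit whose bromodomains bind acetylated histones, had the broad peak with the lowest q of all 28. It lay at chr3:52570390-52570739, 8629 to 8690 bp past the end of the gene. Fold enrichments there were 4.51 (test 1), 5.25 (test 2) and 5.72 (control 2), with pileups of 13.1, 17.2 and 23.4 fragments. The −log10 q was 4.06, 6.47 and 9.999 in that order. Within their own lists these fold enrichments stood at percentiles 66.7, 93.9 and 94.6. The site was thus called in libraries of both groups. Test 2 also had a narrow peak inside it, with a fold enrichment of 5.53 and a −log10 q of 3.58. UQCC5 and NT5DC2 are the next genes past this end in the RefSeq order. Within PBRM1 a single broad peak was called, in control 2, 14.8 kb into the gene, with a fold enrichment of 3.60. Its start had no peak in any list.

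ARID2 (chr12:46123620-46301819, plus strand), the DNA-binding subunit of PBAF, had 4 broad and 0 narrow peaks. A region before its start, chr12:46121306-46121679, was called in test 1 with a fold enrichment of 4.25 and in control 2 with 4.56, its edge 1974 and 1941 bp from the start. Test 1 had a second broad peak closer in, at chr12:46122649-46122827, 793 bp before the start and with a fold enrichment of 3.93. Test 2 had instead a peak 169 kb into the gene at 3.50, with a −log10 q of 1.5. ARID2 and SMARCC2 together gave 10 of the 28 peaks from chromosome 12, none of them in control 1.

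Within 1 kb of a start, broad peaks were found for 4 genes, each in a different gene and a single library. Test 1 had ARID2 and SMARCC2, test 2 had ARID1A and SMARCC1, and neither control library had any. The count per library was thus 2, 2, 0 and 0 (exact permutation p = 0.333, again the lowest possible). The groups did not overlap in number. The share of all gene starts with a broad peak was not analysed here, so these counts cannot be set against the whole lists. No start was called in both test libraries, and all 4 peaks were weak, with a −log10 q of 2.08 to 2.5. With 2.5 kb on either side the difference, control minus test, moved from -2.0 to -1.5, because control 2 then gained ARID2. At a −log10 q of 5 or more no start was called in any library. Narrow peaks gave no difference, with SMARCC2 called in 1 library of each group. Starts of ARID1B, PBRM1 and SMARCB1 had no peak in any of the 8 lists.

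Sharing between libraries followed the same lines. Of the 13 broad regions at the loci, 8 (61.5%) were called in a single library, against 70.4% of all broad regions. The 3 called in 3 libraries, in ARID1B and past PBRM1 and SMARCB1, were 23.1% of the 13, where 15.7% of all broad regions were called in 3 or 4. Each of those 3 was missing from control 1, a pattern held by 10.5% (3864) of all broad regions. Over the genome 5756 broad regions were called in 3 or 4 libraries and 1116 in all 4. The pattern was thus the usual one of regions called in 3 libraries and not particular to these loci. Of the 5 narrow regions, 3 were called in a single library, against 80.7% of all narrow regions, and 0 in 3 or 4, against 9.27%. The pattern without control 1 was held by 0 of the 5, against 3.82% of all narrow regions. No region at the loci was called in all 4 libraries, against 3.86% of all narrow and 3.04% of all broad regions. These shares rest on 13 and 5 regions, and their differences from the whole were not tested.

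Among broad peaks, those inside the genes and those in the flanks differed in strength. The 7 broad peaks in gene bodies, in ARID1B, ARID2 and PBRM1, had a −log10 q of 1.5 to 2.27 and pileups of 8 to 9.48 fragments, at or near the weakest accepted. The 6 broad peaks in downstream flanks had 4.06 to 9.999 and 13.1 to 23.4 fragments, and the 4 in upstream flanks 3.18 to 6.97 and 11.4 to 15.5 fragments. These ranges of bodies and flanks did not overlap, but they rest on repeated calls of few sites. The downstream peaks were 2 sites, past PBRM1 and SMARCB1, each called in 3 libraries. The upstream peaks were 2 sites, before ARID1A and ARID2, each called in 2 libraries. Of the body peaks, 3 were calls of the same ARID1B region. The 4 broad peaks at starts, at 2.08 to 2.5, overlapped the body range. Narrow peaks, of which gene bodies had none, ran from 1.39 to 7.23 in the downstream flanks, and the lowest, that of test 1 past SMARCB1, lay below every broad body peak. In all, 7 of the 28 peaks reached a −log10 q of 5, and all 7 lay in flanks, at the sites beside ARID1A, PBRM1, SMARCB1 and SMARCC2. The share of all listed peaks that reached this value was not analysed here, so the 7 cannot be set against the whole lists.

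The local background, recovered from the pileup and fold enrichment of a peak, also differed by place. It equalled the genome background of the library (within 2%) at all 7 gene body peaks, and also at 1 of the 4 upstream flank peaks, that of control 2 before ARID2. The lowest ratio of any peak was 1.003. A ratio near 1 may thus be a floor set by the caller and not a measured local level, which was not tested. The upstream flank peaks ranged from 1.003 to 1.495 times the genome background and so reached down to the gene body values. In the downstream flanks it was 1.44 to 2.25 times the genome background for broad and 1.58 to 4.32 times for narrow peaks. At the starts it was 1.05 to 2.5 and 1.46 to 3.21 times. The highest values, 3.70 in test 1 and 4.32 in test 2, belonged to the narrow peak past the end of SMARCC2. A peak's own fragments enter its local background, so a stronger peak raises it. The share of this in the differences was not tested.

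**Figure D3:**
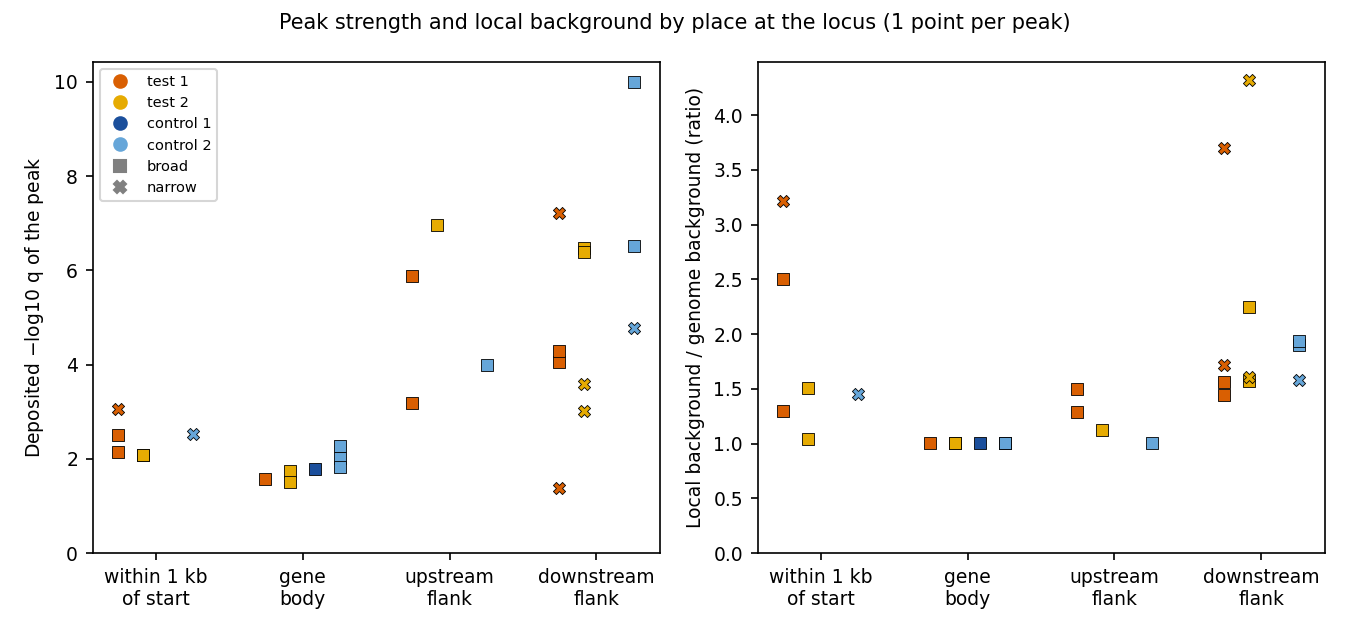
Deposited −log10 q (left) and local background as a ratio to the genome background of the library (right) of each of the 28 peaks, by place at the locus; colours are libraries, squares broad and crosses narrow peaks. Gene body peaks lie at 1.5 to 2.27 on the left and at a ratio close to 1 on the right, below most flank peaks on both, with 1 narrow flank peak lower on the left and 1 upstream flank peak level on the right. A ratio close to 1 may be a floor and not a measured level.

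The 10 kb limit of the rule took in some sites and left out others. Just inside were the narrow peak of control 2 9.35 kb past SMARCC2 and the PBRM1 site. Just outside were a narrow and a broad peak of control 1 beside ARID1B, 10.951 and 10.929 kb away, with fold enrichments of 5.53 and 3.69. At the other 6 loci the next peak outside was 17.6 kb or more away.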

How the data were processed

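ATAC-seq peak lists of 4 OVSAHO libraries, 2 test and 2 control by the labels, were used. Per the labels' protocols, an Active Motif kit was used for tagmentation and library making. Reads were handled on hg19, per the submitters' processing notes, which list edgeR 3.34.1, MACS2 2.2.7.1, Bowtie2 2.3.5.1, Picard, cutadapt 3.2 and deepTools 3.5.1 without their roles. Per the file headers, MACS2 2.2.7.1 called peaks in each library separately, without a control sample, keeping duplicates, at q 0.05 and with local background taken over 10000 bp. Nucleosome-free fragments gave the narrow and all fragments the broad lists. Pileup, as deposited, is a coverage signal in fragments. Each p and q was deposited as −log10. Fold enrichment, as deposited, is the ratio of pileup to that library's local background, with 1 added to both. Kept duplicates add to a pileup.

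Locus coordinates are 1-based hg19 positions given with the rule. Strands came from RefSeq for 4 genes and from general knowledge for ARID2, SMARCC1 and SMARCC2. An hg19 annotation was not used here, so neighbouring genes are named only by their order in GRCh38.p14, and other SWI/SNF subunits were not analysed. On chromosomes 1 to 22 and X, peaks of different libraries with an overlap of at least 1 bp formed merged regions. Local background was (pileup + 1) divided by fold enrichment, minus 1, and the genome background was fragments times mean fragment size over an effective genome size of 2.7e+09. Group means were compared by exact permutation (two-sided, 6 assignments). Regions named are those within 1 kb of a start, in 3 or 4 libraries, exclusive to a group, or highest in fold enrichment at their locus. The other peaks were named after their values were seen. The loci, lists and tests were chosen with earlier results of these data known. Alternatives were no flank, equal list lengths, a −log10 q of 5 or more, 50% overlap, merging within 100 bp, a start window of 2.5 kb, peaks per 1000000 fragments, each library left out and a replicate block. Merging was tested on simulated data. Scripts ran in Python 3.11.15 with pandas 2.3.3, numpy 2.4.6, matplotlib 3.10.9 and scipy 1.17.1.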

Additional observations from a re-analysis of the deposited data

How the results depend on the processing

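Counts at the 7 loci are small, and 2 against 2 libraries cannot give a p below 0.333. With the genes alone and no flank, the differences in narrow and in broad peaks, control minus test, were both 0.0, and the test-only regions of both types fell to 0. At a −log10 q of 5 or more the difference in starts with a broad peak was 0.0 and test-only narrow regions numbered 0. With equal list lengths the difference in starts with a narrow peak was -0.5. Leaving out each library in turn gave differences of -2.5 to -0.5 narrow peaks, -6.0 to -1.0 broad peaks and -0.5 to 0.5 starts with a narrow peak. For starts with a broad peak it gave -2.0 in every case, which was fixed by equal counts within each group. Regions then numbered 1 to 2 test-only and 0 to 1 control-only in the narrow lists, and 1 to 4 test-only and 0 to 2 control-only in the broad lists. Fewer libraries must agree when one is left out. Of 70 alternative values 51 kept their direction or count and 19 did not. No difference reversed, but counts of regions and differences of 0 could not reverse. A replicate block keeps each difference by its design, so its values could not change. The labels give shared replicate numbers but no shared origin. Same-numbered libraries deviated together by a correlation of -0.019 in narrow and -0.079 in broad regions. A region called in a single library (80.7% of narrow and 70.4% of broad regions) has no deviation within the other group. This pulls the correlation towards 0, so it cannot show whether same-numbered libraries share an origin. With a replicate block the differences were unchanged at -1.5 narrow and -3.5 broad peaks and 0.0 and -2.0 starts (exact sign-flip permutation p = 1.0, 0.5, 1.0 and 0.5, with 0.5 the smallest possible). At this depth a site without a peak is not shown to be closed.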
